A study of Mus musculus with 5 samples.

Results

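The genes described here are 7 that are widely used as macrophage or monocyte markers, C1qa, C1qb, C1qc, Lyz2, Csf1r, Itgam and Ccr2, measured in a dendritic cell line. They were chosen by name out of 53700 gene rows of the count table, with their counts in these libraries already known. Their levels and ratios are therefore a description, with no test. Each of the 7 symbols had 1 row in the table, and all 7 reached 10 CPM (the depth-scaled count) in at least 1 library, as did 8846 genes in all, which are the compared genes below. C1qb reached this minimum in the vehicle library alone and Ccr2 in the 24 h library alone, so that for these genes the minimum itself depended on the library in which they were highest.

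MutuDC is a mouse line of immortalised dendritic cells, of the type called cDC1. The labels give 5 libraries, with 1 per time point: cells given vehicle, taken as 0 h, and cells exposed to Fanchinoline (spelled as in the labels) for 2, 6, 12 and 24 h. In the design text the control is untreated, so that solvent at 0 h is not settled, and triplicates are mentioned, while the table holds 1 column per time point. No dose is stated in the sources used here. No vehicle library stands beside the later times, so hours in culture and exposure cannot be told apart, and in bulk RNA fewer expressing cells cannot be told apart from less RNA per cell.

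Type 1 conventional dendritic cells capture dead cells and present their antigens to CD8 T cells, and they are separated from macrophages and monocytes by low expression of the genes listed here. C1qa, C1qb and C1qc encode the A, B and C chains of C1q, the recognition molecule of the classical complement pathway, in which the chains combine through collagen-like stems that end in globular heads. Lyz2 encodes lysozyme M, which cleaves bacterial cell walls and is made in bulk by macrophages and neutrophils. Csf1r encodes the receptor for CSF1 and IL-34, on which most macrophages depend. Itgam encodes CD11b, the integrin alpha chain that pairs with CD18 to form complement receptor 3, which binds iC3b. Ccr2 encodes the receptor for CCL2 by which monocytes leave the bone marrow.

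C1qa, C1qc and C1qb lie side by side on the minus strand of chromosome 4, within 18675 bases of GRCm38 (136880129 to 136898803). The 250 bases before the RefSeq start sites of C1qb and C1qc, as neighbours whose levels are followed below, and of Itgam, whose level went the other way, are shown 5′ to 3′ on the gene's strand, from RefSeq on GRCm38. Capitals mark GAGGAA on either strand, a form of the letters bound by the myeloid factor PU.1. In C1qc they mark the longer GAGGAAGT that holds it, on the opposite strand. Of the 6 members looked up in that table, 5 had an entry, and C1qa had none. By the gene positions of GENCODE M21, part of the windows of C1qc, Lyz2 and Ccr2 lies within the gene.
C1qb, chr4:136886201-136886450, minus strand: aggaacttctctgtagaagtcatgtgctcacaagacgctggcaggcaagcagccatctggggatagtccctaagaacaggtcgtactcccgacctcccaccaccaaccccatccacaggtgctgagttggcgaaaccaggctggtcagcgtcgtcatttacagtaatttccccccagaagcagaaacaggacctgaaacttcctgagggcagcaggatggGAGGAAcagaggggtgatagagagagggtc
C1qc, chr4:136892915-136893164, minus strand: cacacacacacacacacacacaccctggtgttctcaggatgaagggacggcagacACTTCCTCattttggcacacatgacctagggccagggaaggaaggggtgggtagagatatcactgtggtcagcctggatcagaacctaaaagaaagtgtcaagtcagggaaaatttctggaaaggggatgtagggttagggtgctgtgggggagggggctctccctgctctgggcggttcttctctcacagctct
Itgam, chr7:128062390-128062639, plus strand: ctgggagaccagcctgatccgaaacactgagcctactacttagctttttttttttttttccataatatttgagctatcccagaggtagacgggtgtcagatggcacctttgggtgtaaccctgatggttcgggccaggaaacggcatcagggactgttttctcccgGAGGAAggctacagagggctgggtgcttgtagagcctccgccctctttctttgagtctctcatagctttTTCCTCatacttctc
GAGGAA was present once in C1qb, once in C1qc and at 2 positions in Itgam, and not in the windows of Lyz2 and Ccr2. It was present in 23.3% of the 32851 promoter windows of this length in the table. The longer GAGGAAGT, which includes the shorter motif, was present in C1qc alone among the 5 and in 2.44% of all windows. Neither TGCTGAC, read by MAF factors (3.81% of all windows), nor TTGCNNAA, read by C/EBP factors (9.56%), was present in any of the 5. A match says only that these letters are there. Variants of these letters were not searched, so a window without a match can still hold a site for the factor.

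Lyz2 has a near copy, Lyz1, beside it on chromosome 10, and reads of one can be counted for the other. The first 90 coding bases of both are shown from the GENCODE M21 transcripts, with capitals at the positions that differ.
Lyz2: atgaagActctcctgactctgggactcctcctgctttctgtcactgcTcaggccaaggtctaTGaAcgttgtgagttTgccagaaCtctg
Lyz1: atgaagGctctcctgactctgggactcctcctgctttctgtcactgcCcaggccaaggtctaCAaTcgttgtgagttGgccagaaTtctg
Over 444 coding bases, 22 bases differed. Of all windows of 50 bases in the Lyz2 transcript, 15.4% were also present in Lyz1. Lyz1 nevertheless took a small part of the counts of the pair, between 0.834% in vehicle and 1.51% at 24 h.

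Other members share sequence with neighbours as well. Exons of Itgam (chromosome 7, 128062640 to 128118491) overlap 3450 bases of Gm49368, a gene model on the same strand, and 72.4% of the 50-base windows of the Itgam transcript are in it too. Exons of Csf1r (chromosome 18, 61100598 to 61132149) overlap 873 bases of Hmgxb3 on the opposite strand, and the library kit does not mark strand. No exon overlap was found for C1qa, C1qb, C1qc, Lyz2 or Ccr2.

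The libraries held 33568526 to 42854511 counts each. At these depths 10 CPM stood for 328 to 427 counts, and 3 counts, the limit that a count of 0 allows, for 0.0703 to 0.0915 CPM. Intervals are 95% exact intervals that cover counting error only, since reads amplified without molecular identifiers are not independent molecules. They say nothing of the spread between cultures, which was not measured. The rule for a call, in either direction, was a log2 ratio of 1 or more in size with an interval that did not include 0. Most ratios of this depth have an interval that excludes 0, so an interval alone sets little apart: at 24 h against vehicle, 41.6% of compared genes had an interval above 0 and 41.0% one below.

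The cDC1 label was checked first. Of 20 cDC1 identity genes, 19 were among the compared genes, with a summed level of 9434 to 12143 CPM over the 5 libraries. Irf8, the transcription factor of this lineage, averaged 4133 CPM, the chemokine receptor Xcr1 293 CPM and Clec9a, a receptor for dead cells, 226 CPM. Itgae, which encodes CD103, was the exception at 2.11 CPM. The summed level of the 7 macrophage-type genes was between 489 and 639 CPM. This sum covers fewer genes, and the cDC1 sum is mostly that of Irf8, Wdfy4 (1437 CPM), Naaa (1020 CPM) and Id2 (914 CPM).

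The 7 genes stood without most other macrophage markers. Of 20 further macrophage genes, 4 reached the minimum: the pore-forming Mpeg1 (mean of 1577 CPM), heme oxygenase Hmox1 (712 CPM), Timd4 (153 CPM) and Cd68 (144 CPM). Marco, Mertk, Mrc1, Trem2 and Vsig4 were at 0 counts in all 5 libraries. Adgre1, which encodes F4/80, averaged 0.441 CPM and Fcgr1, the high-affinity Fc receptor, 0.140 CPM, against 98.4 CPM for Csf1r and 143 CPM for Itgam. The 4 genes did not move together, and 0 of them were called at any time. Cd68, a lysosomal membrane protein of macrophages, was at 189.9 CPM in vehicle and 171, 139, 113 and 109 CPM at 2, 6, 12 and 24 h, with a log2 ratio of -0.75 at 12 h and -0.80 at 24 h (-0.48 and -0.47 less a fit on transcript length and GC content, described below). Timd4, a receptor for dead cells, was at 178 CPM in vehicle and 158, 140, 134 and 156 CPM later, below vehicle in each treated library. Less the same fit, the log2 ratio of Timd4 was 0.08, -0.12, -0.22 and -0.002 at 2, 6, 12 and 24 h. Mpeg1 was at 1383 CPM in vehicle and 1562, 1582, 1630 and 1731 CPM later, and Hmox1 at 687 CPM and 676, 796, 698 and 705 CPM. The summed level of the list, 2456 CPM in vehicle and 2582, 2671, 2590 and 2722 CPM at the later times, is mostly that of Mpeg1 and Hmox1 and does not show the lower levels of Cd68 and Timd4. Among 14 monocyte genes, 3 reached the minimum, Cx3cr1, Chil3, Fn1 and Cd300e were at 0, and the sum went from 69.2 CPM in vehicle to 42.3 CPM at 12 h and 55.2 CPM at 24 h. Of 11 cDC2 genes, which mark the dendritic cell kind that carries CD11b, 1 reached the minimum (Clec4a2, 11.7 CPM), with Sirpa at 0.0373 CPM and Cd209a at 0. The sum of this list was between 10.8 CPM at 6 h and 17.3 CPM in vehicle. Of 12 B, T and NK cell genes 0 reached it and 7 were at 0, with a sum of 0.188 to 0.495 CPM. Neutrophil genes S100a8, S100a9, Csf3r, Ly6g and Elane were at 0, while Mmp9, a protease, was at 1909 to 2847 CPM and made up almost the whole sum of its list. Of 8 plasmacytoid genes, 2 reached the minimum (Bst2, 63.3 CPM, and Tcf4, 23.9 CPM), and the sum was 87.4 to 95.1 CPM.

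**Figure D1:**
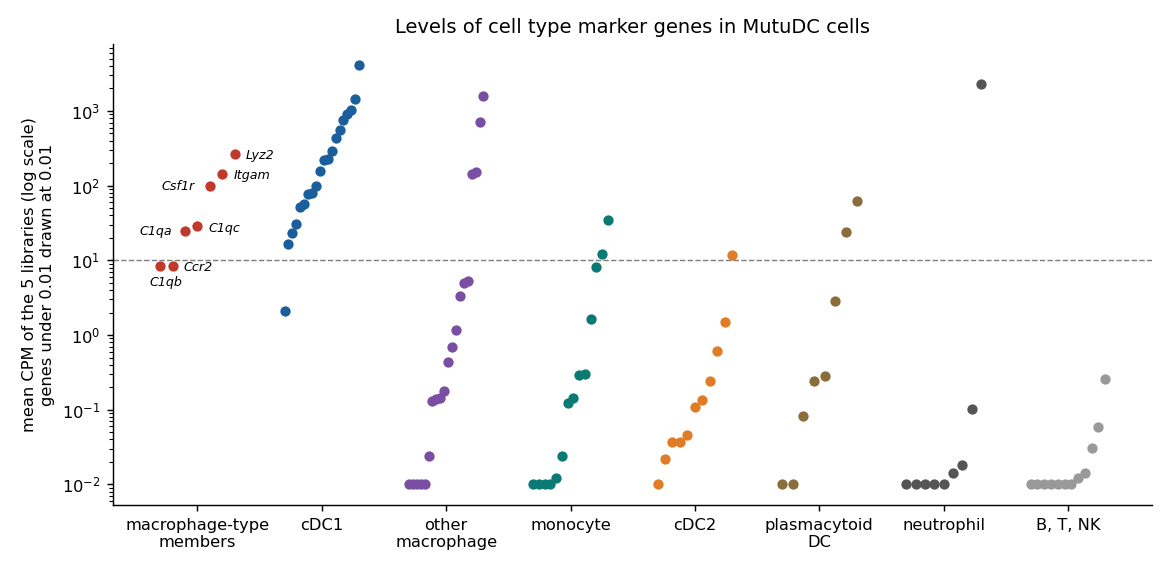
Mean level over the 5 libraries of each marker gene, in CPM on a log axis, by cell type list, with 1 point per gene and the dashed line at 10 CPM. Of the cDC1 genes 19 of 20 lie above the line, while among the other macrophage genes 4 do.

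The C1q chains stood lower in all 4 treated libraries than in vehicle, although for C1qb at 2 h the difference was within counting error (log2 ratio -0.19, -0.42 to 0.03). C1qa was at 39.4 CPM in vehicle and at 25.3, 21.8, 17.0 and 18.5 CPM at 2, 6, 12 and 24 h, with 1293, 943, 926, 640 and 791 counts behind these values. Every treated value lay below vehicle, and 12 h and 24 h, the lowest pair, did not differ beyond counting error. Against vehicle the log2 ratio of C1qa was -0.64 at 2 h, -0.85 at 6 h, -1.21 at 12 h (interval -1.36 to -1.08) and -1.09 at 24 h (-1.22 to -0.96). C1qa was called lower at 12 h and at 24 h, as the only member called in any comparison under TMM scaling. With library totals in place of TMM, C1qa at 24 h was at -0.99 and not called, and Csf1r was called at 1.03. At 12 h 0.746% and at 24 h 1.23% of the compared genes were called lower, and 0.328% and 0.893% had a ratio at least as low as that of C1qa.

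C1qc, whose chain is joined to the others in the finished protein, was at 43.0 CPM in vehicle and at 28.5, 26.4, 23.0 and 21.8 CPM at 2, 6, 12 and 24 h. Its levels followed the order of time without a break, although 2 h and 6 h, and 12 h and 24 h, did not differ beyond counting error. The log2 ratio against vehicle was -0.60, -0.70, -0.90 and -0.98 (interval at 24 h -1.10 to -0.86), just short of the size for a call. C1qb was the least abundant of the trio, with 10.4 CPM in vehicle and 9.08, 7.25, 6.28 and 8.74 CPM at the later times. Its lowest value was at 12 h (log2 ratio -0.72, interval -0.97 to -0.48), and at 24 h it was back near vehicle (-0.25, -0.47 to -0.04).

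C1qb thus parted from its neighbours at the end of the series. From 12 h to 24 h its log2 ratio was 0.47 (0.24 to 0.72), against 0.13 (-0.02 to 0.28) for C1qa and -0.08 (-0.21 to 0.06) for C1qc. Of the counts of the 3 chains, C1qb took 11.2% in vehicle and 14.5%, 13.1%, 13.6% and 17.8% at 2, 6, 12 and 24 h. C1qa took 42.5% in vehicle and between 36.7% and 40.2% afterwards. Summed to 1 feature, the 3 chains were at 92.8 CPM in vehicle and 62.8, 55.5, 46.2 and 49.1 CPM later, a log2 ratio of -1.01 (-1.09 to -0.92) at 12 h and -0.92 (-1.001 to -0.84) at 24 h.

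Lyz2 was the most abundant member in all 5 libraries and was lowest at the end. It stood at 355 CPM in vehicle, 282 CPM at 2 h, 288 CPM at 6 h, 212 CPM at 12 h and 198 CPM at 24 h. The values at 2 h and 6 h did not differ beyond counting error, and the others formed a descending order. The log2 ratio against vehicle was -0.33, -0.30, -0.74 and -0.85 (interval at 24 h -0.89 to -0.81). With Lyz1 added it was -0.84 at 24 h. Lyz1 itself was at 2.99 CPM in vehicle and 3.02 CPM at 24 h, below the minimum for calls.

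Csf1r, the receptor on which macrophages depend, stood above vehicle in all 4 treated libraries. It was at 72.3 CPM in vehicle, 101 CPM at 2 h, 80.8 CPM at 6 h, 100.3 CPM at 12 h and 137 CPM at 24 h. The levels at 2 h and 12 h did not differ beyond counting error, and 6 h lay between them and vehicle. The log2 ratio against vehicle was 0.49, 0.16, 0.47 and 0.93 (interval at 24 h 0.86 to 0.996), and at 24 h 3.58% of compared genes stood at least as high. Hmgxb3, which overlaps Csf1r on the other strand, was at 44.6 CPM in vehicle and 73.6, 67.1, 70.4 and 61.3 CPM later. The sum of both genes had a log2 ratio of 0.76 at 24 h. That sum takes all counts of Hmgxb3, although the overlap is 873 of the 5774 exonic bases of Csf1r.

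Itgam, the CD11b chain, was also above vehicle at each treated time, with a dip between. It was at 109.9 CPM in vehicle, 158 CPM at 2 h, 141 CPM at 6 h, 122 CPM at 12 h and 185 CPM at 24 h, and all 5 levels differed beyond counting error. The log2 ratio against vehicle was 0.52, 0.36, 0.16 and 0.75 (interval at 24 h 0.69 to 0.81). The overlapping model Gm49368 was at 24.2 CPM in vehicle, 23.8, 16.0 and 17.7 CPM at 2, 6 and 12 h and 9.82 CPM at 24 h, where its log2 ratio was -1.30. Itgam and Gm49368 were thus on opposite sides of vehicle at 24 h, and their sum had a log2 ratio of 0.44, 0.22, 0.06 and 0.54 at the 4 times. How reads were divided between the entries is not stated in the sources used here.

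Ccr2, the monocyte chemokine receptor, was the least abundant member together with C1qb. It was at 8.57 CPM in vehicle, 8.63 CPM at 2 h, 5.60 CPM at 6 h, 7.34 CPM at 12 h and 12.1 CPM at 24 h, with 281, 322, 238, 277 and 517 counts. The lowest value was at 6 h (log2 ratio -0.61, -0.87 to -0.36) and the highest at 24 h (0.50, 0.29 to 0.71). Vehicle, 2 h and 12 h did not differ from each other beyond counting error where neighbours in the order were compared. The receptor gene Ccr1, also on chromosome 9, was at 140.3 CPM in vehicle and 136 CPM at 24 h (-0.04, -0.10 to 0.02).

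**Figure D2:**
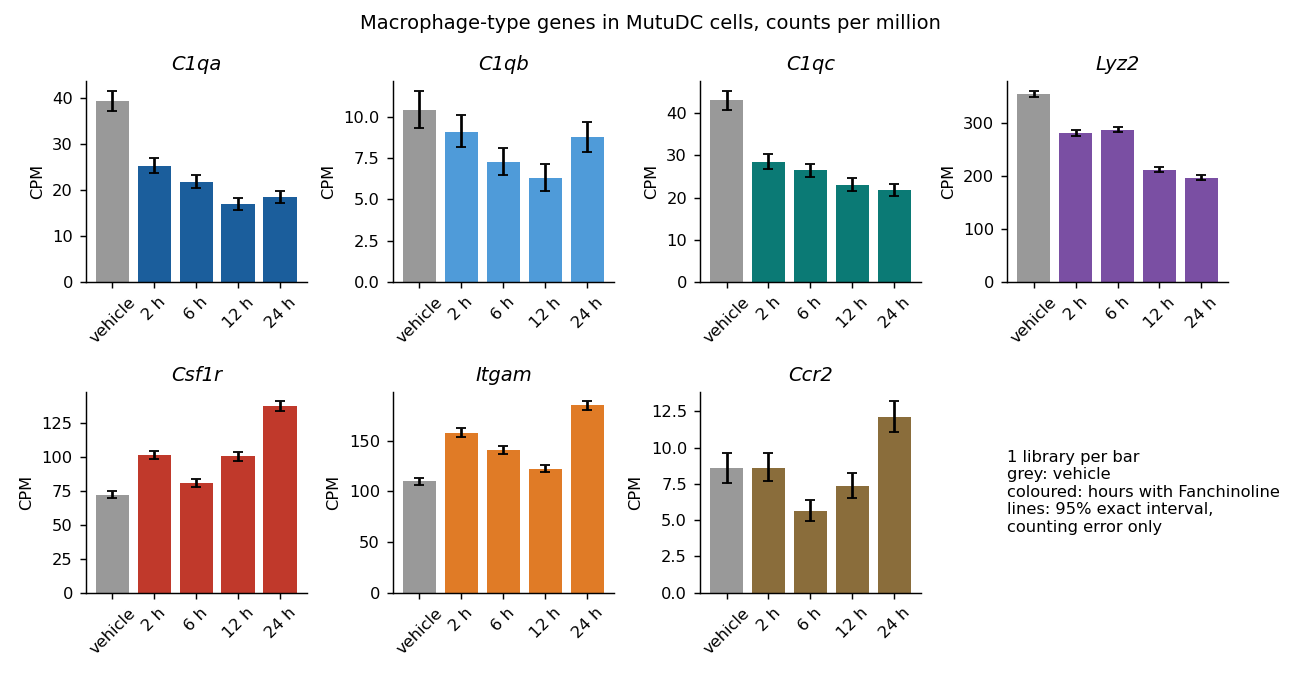
Level of each macrophage-type gene in CPM (linear axis from 0) in the vehicle library (grey) and after 2, 6, 12 and 24 h with Fanchinoline (coloured), 1 library per bar, with lines for 95% exact intervals of counting error. C1qa, C1qc and Lyz2 were highest in vehicle and Csf1r, Itgam and Ccr2 at 24 h.

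Per length of transcript, the order of the genes changed over the series. In vehicle the level in CPM per kilobase was 270.03 for Lyz2, 37.9 for C1qa, 35.7 for C1qc, 23.5 for Itgam, 15.4 for Csf1r, 9.56 for C1qb and 1.496 for Ccr2. At 24 h it was 150.1 for Lyz2, 39.4 for Itgam, 29.2 for Csf1r, 18.1 for C1qc, 17.8 for C1qa, 8.03 for C1qb and 2.11 for Ccr2. Itgam and Csf1r thus stood below C1qa and C1qc in vehicle and above them at 24 h. The level of Csf1r in CPM divided by the summed CPM of the C1q chains was 0.779 in vehicle and 1.61, 1.46, 2.17 and 2.80 at 2, 6, 12 and 24 h. Over all 7 genes, the share of the library's counts was 0.0624% in vehicle, 0.0485% at 12 h and 0.0609% at 24 h.

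The vehicle library also differed from the treated ones in its balance of short and long transcripts, along which these genes divide. C1qa (1040 bases), C1qb (1088) and C1qc (1203) belong to the shortest decile of compared genes by longest transcript, and Lyz2 (1316) to the next. Csf1r (4701 bases) and Itgam (4682) belong to the eighth decile and Ccr2 (5728) to the ninth. At 24 h over vehicle, the median log2 ratio of the shortest decile was -0.37, that of the next -0.30, that of the eighth 0.22 and that of the ninth 0.34. The 4 short members therefore lay on the side of their deciles and the 3 long members on the side of theirs.

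Less the fit on transcript length and GC content, no member reached the size for a call at 12 h or 24 h. C1qa was then at -0.89 at 12 h and -0.67 at 24 h, C1qc at -0.62 and -0.62, and Lyz2 at -0.45 and -0.53. Lyz2 was near its fit at the earlier times, with -0.03 at 2 h and -0.01 at 6 h. Csf1r was at 0.70 and Itgam at 0.52 at 24 h, and Ccr2 at 0.19 (-0.02 to 0.40). In this adjusted form C1qb was at 0.13 at 24 h, Csf1r at -0.18 at 6 h and Itgam at -0.09 at 12 h, each on the other side of 0 from its measured ratio. After this adjustment 0.555% of compared genes were called lower and 1.35% higher at 12 h, and 0.86% lower and 1.81% higher at 24 h.

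**Figure D3:**
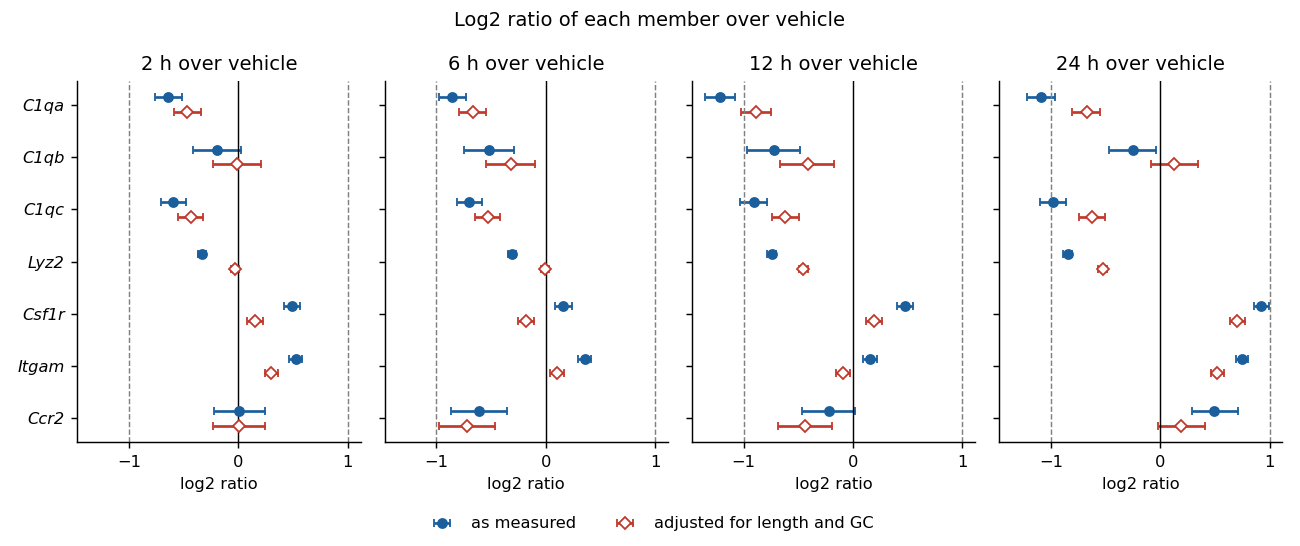
Log2 ratio of each member over vehicle at 2, 6, 12 and 24 h, as measured (filled circles) and less the fit on transcript length and GC content (open diamonds), with 95% exact intervals of counting error and dashed lines at the size for a call. The measured C1qa lies beyond -1 at 12 h and 24 h, and the adjusted values of all members lie between the dashed lines.

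**Figure D4:**
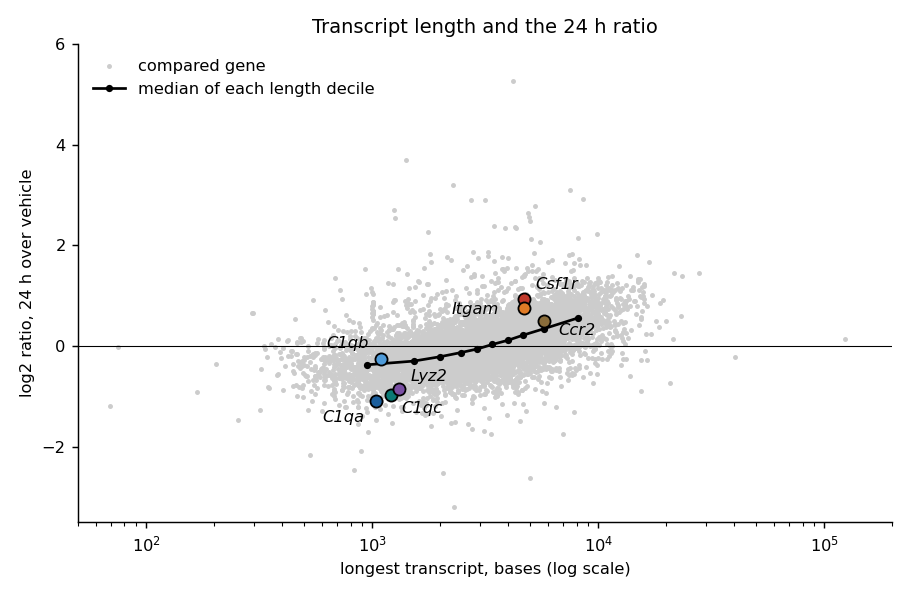
Log2 ratio at 24 h over vehicle against the length of the longest transcript in bases (log axis) for the compared genes (grey), with the median of each length decile (black) and the 7 members in colour. C1qa, C1qc and Lyz2 lie below the median of genes of their length, and Csf1r and Itgam above it.

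Steps between treated libraries do not involve the vehicle library. From 2 h to 6 h, Ccr2 had a log2 ratio of -0.62 (-0.87 to -0.38), which 0.237% of compared genes matched or went below, Csf1r -0.33 and C1qb -0.32. From 6 h to 12 h Lyz2 was at -0.44 (-0.48 to -0.40) and C1qa at -0.36 (-0.51 to -0.22), while Csf1r was at 0.31 and Ccr2 at 0.39. Lyz2 and the C1q trio thus passed their largest treated step before the 24 h library, apart from C1qb, whose step was largest at the end.

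From 12 h to 24 h, Csf1r, Itgam and Ccr2 all stood higher. Csf1r had a log2 ratio of 0.45 (0.39 to 0.51), Itgam 0.59 (0.54 to 0.65) and Ccr2 0.72 (0.51 to 0.94). At least as high were 1.31%, 0.565% and 0.339% of the compared genes. For this step the medians of the length deciles lay between -0.06 and 0.01, and the adjusted ratios were 0.52, 0.62 and 0.64. The sum of Csf1r and all counts of Hmgxb3 was at 0.22, and the sum of Itgam and Gm49368 at 0.47. Lyz2 was at -0.11 (-0.15 to -0.06). With its interval above 0 were 4 of the 7 members, against 19.1% of compared genes. Ccr2, among these 4, reached the minimum of 10 CPM at 24 h alone, which favoured a higher value there. The members were also chosen with their counts known, so these shares are a description.

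**Figure D5:**
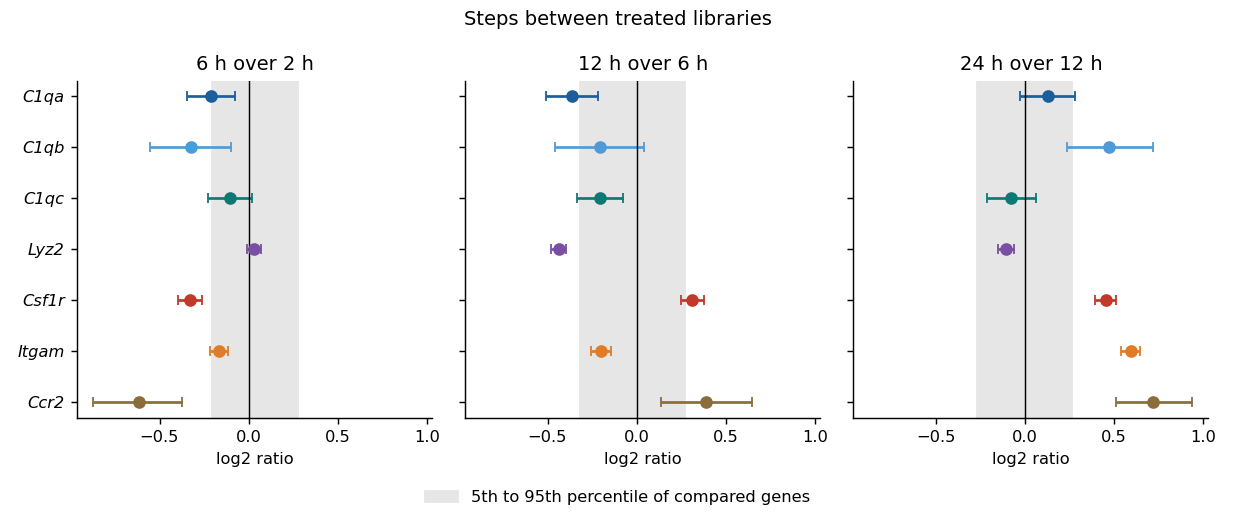
Log2 ratio of each member for the steps from 2 h to 6 h, 6 h to 12 h and 12 h to 24 h, with 95% exact intervals of counting error, and in grey the range from the 5th to the 95th percentile of compared genes. Csf1r, Itgam, Ccr2 and C1qb lie to the right of the grey range at the last step.

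None of the 7 genes was called in a step between treated libraries. The share of compared genes called in either direction was 0.328% between 2 h and 6 h, 0.305% between 6 h and 12 h and 0.147% between 12 h and 24 h. For 24 h over 2 h, where 1.55% were called, Lyz2 was at -0.51, C1qa at -0.45, C1qc at -0.38 and C1qb at -0.06. Ccr2 was at 0.49, Csf1r at 0.44 and Itgam at 0.23. Less the length and GC fit, Lyz2 was at -0.49, C1qa at -0.21, C1qc at -0.19 and C1qb at 0.14. In the same form Ccr2 was at 0.20, Csf1r at 0.54 and Itgam at 0.22. At 2 h and 6 h over vehicle 0 members were called, against 1.33% and 1.94% of compared genes, and at 12 h and 24 h 1 member each, against 3.07% and 4.09%. The median log2 ratio of the 7 members was -0.19, -0.52, -0.72 and -0.25 at 2, 6, 12 and 24 h over vehicle. For all compared genes it was 0.03, 0.04, 0.02 and -0.0002. Less the length and GC fit the member medians were -0.01, -0.32, -0.44 and 0.13, the last on the other side of 0. The comparisons with vehicle share that library.

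The patterns of the members were compared by the root mean square difference in log2 CPM over the 5 libraries, each gene centred on its own mean. C1qa and C1qc differed by 0.11, and C1qc and Lyz2 by 0.13, while C1qb differed from C1qa by 0.27. Csf1r and Itgam differed by 0.18, and Csf1r and C1qa by 0.69, the widest pair. Among 8534 compared genes with an ordinary symbol, the closest to C1qa were Zcchc7 (0.07), Ccdc181 (0.08) and Manf (0.08), and to C1qc Phyh (0.03), Ube2f (0.04) and Zcrb1 (0.04). Those closest to C1qb were Hsh2d (0.06), Olfm1 (0.07) and Gpr160 (0.08). Lyz2 was closest to Pigx (0.03), Nfkbil1 (0.04) and C1qbp (0.04). Closest to Csf1r were Mindy1 (0.06), Fos (0.08) and Myo6 (0.09), and to Itgam Epm2aip1 (0.03), Zfp655 (0.05) and Ddx17 (0.05). For Ccr2 they were Pira2 (0.12), the Fc receptor Fcgr4 (0.14) and Isg20 (0.14). These distances describe 5 libraries, and the levels in them were not adjusted for transcript length.

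Around C1q, most other genes of the classical pathway were below the minimum. Of all compared genes, 0.904%, 1.57%, 2.33% and 2.86% were called higher at 2, 6, 12 and 24 h over vehicle, beside which the counts of the lists below stand. Of 11 measured genes of that list, which includes C1q partners, 3 reached the minimum, 1 was called higher at each treated time and 0 lower. That gene was Lrp1, a scavenger receptor for dead-cell cargo, at 25.3 CPM in vehicle and 88.6 CPM at 24 h (log2 ratio 1.81, 1.70 to 1.92). Less the length and GC fit Lrp1 was at 0.33, 0.32, 0.55 and 1.08 at the 4 times. Calr, the chaperone calreticulin that C1q can bind, was at -0.48 at 24 h (-0.33 adjusted). C1qbp, a mitochondrial protein named for C1q binding, was at -0.80 (-0.46 adjusted). C3, the central component, averaged 0.552 CPM, and C1s1 was at 0 counts in all libraries. Among 12 genes of the alternative pathway and of complement regulators and receptors, 4 reached the minimum and 1 was called higher at 24 h, C3ar1, the receptor for C3a, at 7.26 CPM in vehicle and 21.4 CPM at 24 h (1.55, 1.35 to 1.77; 1.40 adjusted). C3ar1 reached the minimum of 10 CPM at 12 h and 24 h alone, which favoured a higher value there. Properdin, encoded by Cfp, was at -0.16 at 24 h over vehicle.

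Around Csf1r, neither ligand was present at a level that could be compared. Csf1 averaged 0.127 CPM and Il34 was at 0 counts. Of 12 genes of the CSF1 ligands and related receptors, 4 reached the minimum and 0 were called at any time. Csf2rb, the shared chain of the GM-CSF receptor, was at 0.82 at 24 h over vehicle and Csf2ra, its specific chain, at -0.70. Flt3, the growth factor receptor of dendritic cells, was at -0.58. Less the length and GC fit, Csf2rb was at 0.57, Csf2ra at -0.41 and Flt3 at -0.67. Of 12 signalling genes that act next to CSF1R and CD11b, 10 reached the minimum, with 1 called higher at each treated time. This was Cbl, the ubiquitin ligase that removes active CSF1R, at 1.12, 1.10, 1.12 and 1.01. Less the length and GC fit Cbl was at 0.67, 0.52, 0.51 and 0.37, below the size for a call at all 4 times. At 24 h over vehicle Inpp5d, the lipid phosphatase SHIP1, was at 0.13 (-0.13 adjusted) and Plcg2 at -0.07 (-0.24 adjusted).

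Around Itgam, the integrin partners were present throughout. Of 12 genes of leukocyte integrins and their partners 10 reached the minimum and 0 were called in any comparison. Tln1, the cytoskeletal linker talin, was at 0.43 at 24 h over vehicle and Itgax, which encodes CD11c, at 0.03. Itgb2, the CD18 chain that CD11b needs, was at 461 CPM in vehicle and 545 CPM at 24 h (0.24); it was named after its values were seen.

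Around Ccr2, 2 of 12 CC chemokine receptors reached the minimum, Ccr1 and Ccr2. Ccr7, by which mature dendritic cells reach lymph nodes, averaged 0.0577 CPM. Of 11 CC chemokines 1 did, Ccl22, at 0.03 at 24 h, and 0 were called. The CCR2 ligand Ccl2 averaged 1.48 CPM, while Ccl7 and Ccl8 were at 0 counts. Among the monocyte genes, Treml4 was called lower at 12 h (-1.18; -0.99 adjusted) and 24 h (-1.35; -1.13 adjusted) over vehicle, and for 24 h over 2 h (-1.16), where 0.69% of compared genes were called lower. Treml4 reached the minimum of 10 CPM in vehicle and at 2 h alone, which favoured a lower value in the later libraries. Fcgr4, an activating Fc receptor, was called higher for 24 h over 12 h (1.04, 0.87 to 1.22), at 20.6 against 9.99 CPM. In that comparison 0.0904% of compared genes were called higher.

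Of 16 transcription factors that act on macrophage or dendritic cell genes 8 reached the minimum, and 1 was called higher at 24 h, the NF-kB subunit Rel (1.17; 0.74 adjusted). Spi1, which encodes PU.1, was at 444 CPM in vehicle and 404, 403, 352 and 309 CPM later, a log2 ratio of -0.52 at 24 h. Irf8 was at -0.38. In the cDC1 list, 1 gene was called lower at 24 h, Cd8a (-1.24; -1.23 adjusted), and 1 higher at 12 h, Ly75, the uptake receptor DEC-205 (1.04; 0.66 adjusted). The part of the surrounding cell type markers, of transcript length and of overlapping genes in the values of the 7 members was not tested beyond the values given.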

How the data were processed

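RNA-seq of poly-A RNA from MutuDC cells was used, in 5 libraries. Total RNA was extracted with TRIzol and libraries were made with a TruSeq kit that does not mark strand, per the labels' protocols. The authors deposited raw counts per gene, 1 column per time point. Trim Galore and HISAT2 on GRCm38 are named in the submitters' processing notes, without versions. The counting program, its annotation, its strand setting and its treatment of reads that match several genes are not stated in the sources used here.

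Library sizes were corrected by TMM factors of 0.977 to 1.05, and log2 CPM values took a prior count of 2 (edgeR 4.0.16, R 4.3.3, Python 3.11.15, scipy 1.17.1). Ratios carry 95% exact (Clopper-Pearson) intervals. The comparison code was tested on simulated data. With 1 library per time point no replicate test exists, and no p-value is given. Lengths, GC content, positions and overlaps came from GENCODE M21 on GRCm38, which held 99.9% of compared genes, using the longest transcript of the basic set. Adjusted ratios are less a loess fit on log length and GC content (span 0.5). The members and the 16 gene lists, written from textbook knowledge, were chosen with earlier results of these data known. Of each list the text names the called genes and up to 2 further genes with the highest mean, and markers at or near 0; others were named after their values were seen, among them the cell type genes beyond that rule. For each member it names the 3 genes of the closest pattern. Alternatives tried were DESeq2 1.42.0 size factors, library totals, a prior count of 0.5, other minimums and call sizes, and summed entries.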

Additional observations from a re-analysis of the deposited data

How the results depend on the processing

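With a log2 size of 0.5 in place of 1, the number of members called was 3, 4, 4 and 5 at 2, 6, 12 and 24 h over vehicle, then 1 between 2 h and 6 h, 0 between 6 h and 12 h, 2 between 12 h and 24 h and 1 between 2 h and 24 h, against 0, 0, 1, 1, 0, 0, 0 and 0. Less the median of the length decile, or less the fit on length and GC content, 0 members were called at 12 h and 0 at 24 h, and C1qa was at -0.71 or -0.67 at 24 h. With library totals in place of TMM the median of all compared genes shifted by 0.10 at 24 h over vehicle; C1qa was then at -0.99 and not called, and Csf1r was called at 1.03. Of all calls at 24 h over vehicle, 82.8% were then higher, against 69.9%, and for 24 h over 2 h 71.1% against 55.5%. DESeq2 size factors and a prior count of 0.5 left the number of members called as it was in all 8 comparisons. No CPM minimum, or a minimum of 1 CPM, could not change it, since all 7 members reached 10 CPM. Summed entries of a symbol could not either, since each member had 1 row. Over all genes, in the same order of comparisons, the number called was 118, 172, 272, 362, 29, 27, 13 and 137. It was 1224, 1300, 1495, 1753, 670, 657, 693 and 1158 with no minimum, 398, 493, 651, 848, 132, 133, 133 and 419 at 1 CPM, 1453, 1696, 2028, 2434, 155, 200, 117 and 1065 at a size of 0.5, 74, 103, 175, 242, 29, 26, 16 and 152 less the length decile and 60, 85, 168, 236, 28, 23, 14 and 142 less the length and GC fit. No called value of a member changed sign under any alternative run, but the called values were those of C1qa at 12 h and 24 h alone. Uncalled ratios did change sign, among them C1qb at 24 h, Csf1r at 6 h and Itgam at 12 h over vehicle, less either length adjustment. Of 56 member ratios, 30 moved beyond their counting interval less the length decile. The number was 28 less the length and GC fit and 9 with library totals. Adding the counts of Gm49368 to Itgam, or of Hmgxb3 to Csf1r, was chosen after seeing the data; 6 and 7 of 8 ratios then moved beyond their counting interval. No paired analysis was possible because each time point has 1 library, and no library could be left out of a comparison. Depth limits C1qb and Ccr2, with 237 to 517 counts, more than the other members.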
